A study of Mus musculus with 8 samples.

Results

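Chemokines are small secreted proteins that steer leukocytes along a gradient. The set described here holds 49 mouse genes of this system, the CC, CXC and CX3C ligands, their G protein-coupled receptors and the atypical receptors that bind chemokines without signaling through G proteins. They were chosen by family name, and probes were matched to them through RefSeq accessions. Of the 49 genes 48 had a matched probe. Of these, 32 were tested, since in 1 genotype or both at least 3 of the 4 sample channels were well above background. They stand among 23238 tested genes and other targets of 36799 on the array. The other 16 were set aside at background by detection flags, which are measured values, and no probe was matched to Cxcl11.

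RNA came from the back skin epidermis of C57BL/6 newborns at postnatal day 0 (P0), with 4 EED cKO and 4 control samples. EED cKO mice carried K14-Cre and EED flox/flox. K14-Cre acts in keratinocytes of the epidermis and of the hair follicles, and EED is a core subunit of Polycomb repressive complex 2 (PRC2), which places the repressive mark H3K27me3. The K14 promoter is one of keratinocytes, not of leukocytes. For RT-qPCR in EED cKO mice the study names Cre(-) siblings as controls, but for the arrays the alleles of the controls are not given in the sources used here, nor whether each sample was a single animal. Each sample was hybridised together with the same commercial mixture, Universal Mouse Reference RNA, on all 8 arrays, with the sample in Cy3 on replicates 1 and 3 and in Cy5 on replicates 2 and 4 of both genotypes. Values are log2 ratios of sample over reference, and a difference between genotypes is a log2 fold change with its standard error (SE) from limma with the dye as a covariate. A gene "differed" at an adjusted p under 0.05 at any fold and "changed 2-fold" when it also passed the 2-fold limit.

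In skin, keratinocytes, Langerhans cells (the antigen-presenting cells of the epidermis) and resident T cells all make chemokines. Inflammatory ligands such as CXCL1, CXCL2, CCL3 and CCL4 are induced through NF-κB and draw in neutrophils, monocytes and T cells, and CXCL10 is a classical interferon target that attracts T cells through CXCR3. Homeostatic ligands such as CXCL12 and CXCL14 are made without inflammation. Atypical receptors such as ACKR2 take up chemokines and thereby remove them.

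The sequences just before the starts of 6 ligand genes are shown because their RNAs moved together, moved in opposite directions or, for Cxcl3, stayed at background beside neighbours that were higher. They are the 250 bases upstream of the RefSeq start in GRCm38.p6, read 5′ to 3′ on the gene's strand. Capitals mark matches, on either strand, to the κB consensus, to the interferon response element (a GAAA repeat with 2 bases between) or to the TATA letters TATAAA. Cxcl1 (chr5:90890995-90891244, plus strand), Cxcl2 (chr5:90903649-90903898, plus strand) and Cxcl3 (chr5:90785851-90786100, plus strand) are neighbours on one chromosome, and each held the same κB match, GGGAATTTCC. Its leftmost base lay 71, 97 and 73 bases before the start.
Cxcl1: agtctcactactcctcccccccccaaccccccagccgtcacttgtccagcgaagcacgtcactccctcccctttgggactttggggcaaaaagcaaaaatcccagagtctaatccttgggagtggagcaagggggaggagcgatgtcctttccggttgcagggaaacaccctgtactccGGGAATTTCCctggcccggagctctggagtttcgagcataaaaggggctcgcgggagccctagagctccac
Cxcl2: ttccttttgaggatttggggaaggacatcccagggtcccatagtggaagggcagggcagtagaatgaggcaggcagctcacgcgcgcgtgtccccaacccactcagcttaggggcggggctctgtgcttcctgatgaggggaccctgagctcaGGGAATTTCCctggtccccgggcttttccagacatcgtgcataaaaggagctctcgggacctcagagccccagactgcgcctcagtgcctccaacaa
Cxcl3: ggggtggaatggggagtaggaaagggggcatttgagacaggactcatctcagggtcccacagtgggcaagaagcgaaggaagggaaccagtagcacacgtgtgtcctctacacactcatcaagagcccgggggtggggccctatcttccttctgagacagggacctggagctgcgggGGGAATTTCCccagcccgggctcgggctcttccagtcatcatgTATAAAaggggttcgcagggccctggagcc
Cxcl10 (chr5:92348890-92349139, minus strand) held GAAAGTGAAA 213 bases before its start and 2 κB matches that overlap each other, GGGGACTTCC at 104 bases and GGGACTTCCC at 103 bases. Ccl6 (chr11:83593088-83593337, minus strand), a CC ligand that was higher, and Cx3cl1 (chr8:94771930-94772179, plus strand), the ligand that was lower, held no match to the κB consensus or to the interferon response element in this window.
Cxcl10: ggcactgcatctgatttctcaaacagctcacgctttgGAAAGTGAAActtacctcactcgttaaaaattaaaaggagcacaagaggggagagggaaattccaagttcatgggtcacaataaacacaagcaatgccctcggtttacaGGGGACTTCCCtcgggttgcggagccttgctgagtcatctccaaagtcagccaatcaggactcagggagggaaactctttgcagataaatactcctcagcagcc
Ccl6: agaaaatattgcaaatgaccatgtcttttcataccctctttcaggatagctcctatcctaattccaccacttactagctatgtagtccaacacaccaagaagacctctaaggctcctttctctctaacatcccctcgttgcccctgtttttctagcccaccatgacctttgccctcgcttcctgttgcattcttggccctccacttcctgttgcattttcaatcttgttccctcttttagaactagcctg
Cx3cl1: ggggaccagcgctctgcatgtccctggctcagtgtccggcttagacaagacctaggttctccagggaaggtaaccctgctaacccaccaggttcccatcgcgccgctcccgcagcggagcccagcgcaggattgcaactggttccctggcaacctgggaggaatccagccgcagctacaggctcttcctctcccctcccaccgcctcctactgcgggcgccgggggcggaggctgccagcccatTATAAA

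A promoter window was found for 37 of the 49 genes, and 1 start per gene, that listed first in the RefSeq table, was counted. The κB consensus was matched in 9 of the 37 (24.3%), against 5.0% of 32851 RefSeq promoters of the same length. It was matched in 3 of 6 higher members with a window (Cxcl1, Cxcl2 and Cxcl10), in 1 of 4 lower members (Ackr2), in 2 of 14 tested members that did not differ at the threshold and in 3 of 13 members at background. The window at another start of Ccr6, which was not counted, also held a κB match, and one at another start of Ccl25 held TATAAA. The interferon response element was found in 2 of the 37, Cxcl10 and Cxcl14, against 2.98% of all promoters. TATAAA was found in 11 of the 37 (29.7%, against 12.4%), and the median number of CG dinucleotides was 3, against 6 over all promoters. Neighbouring chemokine genes arose by duplication and share sequence, so these promoters are not independent of each other. A match is a description of the letters and was not tested as a binding site.

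Detection is given first. The probes of 24 of the 32 tested genes were well above background on all 8 arrays. Among CC ligands 11 of 17 listed were tested, among CXC ligands 6 of 12, among receptors 10 of 15 and among atypical receptors 4 of 4, along with Cx3cl1. The members at background were the ligands Ccl1, Ccl8, Ccl11, Ccl20, Ccl22, Ccl28, Cxcl3, Cxcl5, Cxcl9, Cxcl13 and Cxcl15 and the receptors Ccr1, Ccr2, Ccr6, Cxcr2 and Cxcr5. For 9 of the 16 the probe was above background in neither channel of any array, so a weak probe cannot be told apart from a lack of RNA. For Ccl8, Cxcl5 and Ccr6 the same probe was above background in the reference channel on all 8 arrays. The gene nearest to the limit from outside was Ccl28, above background on 2 control arrays and 0 EED cKO arrays. Ccr2 was above background on 1 array of each genotype, and Cxcl3, Cxcl5 and Ccr6 on 1 control array each. Nearest from inside were Ccr3 (3 EED cKO arrays, 1 control array) and Ccl12 (1 and 3), and Ccl4, Cxcl2, Ccr4 and Cxcr3 also passed through 1 genotype alone. A gene that passes in this way has its better detected genotype fixed in part by the filter.

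**Figure D1:**
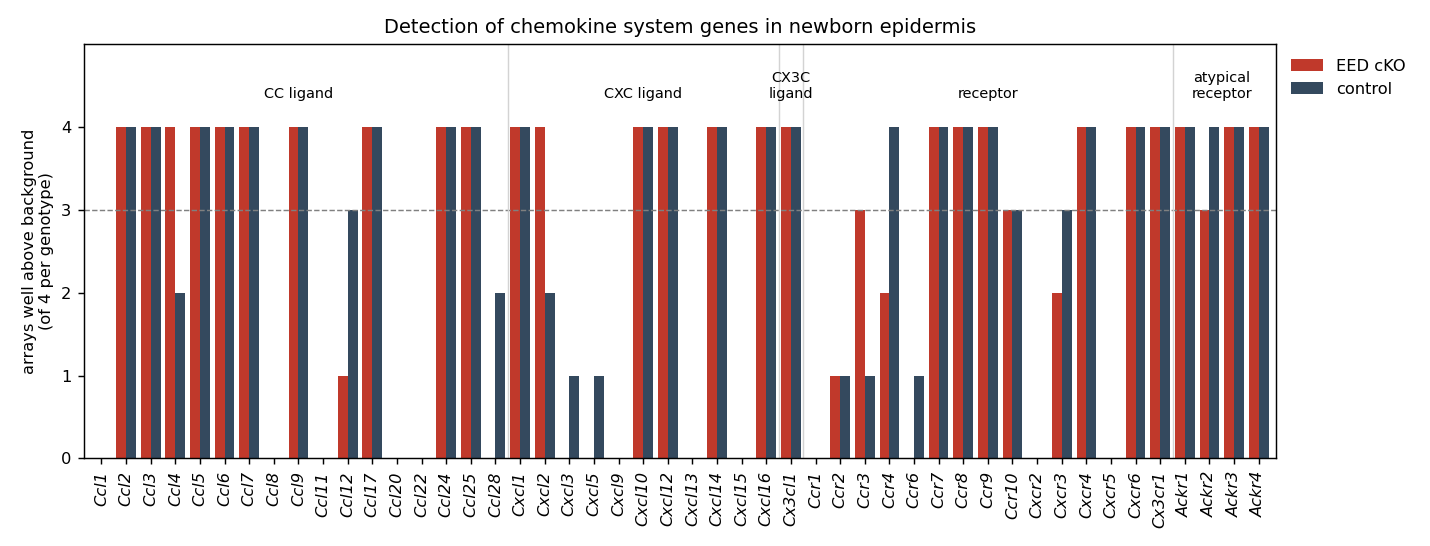
Number of arrays per genotype (y axis, of 4) on which the probe of each of the 48 matched genes (x axis, grouped by role) passed the background limit in the sample's channel. The dashed line marks the 3 arrays needed for testing; 24 genes reach 4 in both genotypes and 16 stay under the line in both.

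Of the 32 tested genes 11 differed between EED cKO and control epidermis (34.4%), against 21.6% of all 23238 targets tested, and their direction was mixed. Ccl4, Cxcl2 and Ccr4 among the 11 passed the filter only through the genotype in which they were higher. Of the 26 members detected on at least 3 arrays in both genotypes 8 differed (30.8%), against 22.2% of 21629 such targets, 5 of them higher and 3 lower. Higher in EED cKO were 7, the ligands Ccl3, Ccl4, Ccl6, Cxcl1, Cxcl2 and Cxcl10 and the receptor Ccr9, against 11.8% of all targets called higher. Lower were 4, the ligand Cx3cl1, the receptors Ccr4 and Cxcr4 and the atypical receptor Ackr2, against 9.88% of all targets. The 2-fold limit was passed by 3 genes, Ccl6 and Cxcl10 higher and Ackr2 lower, against 1.2% of all targets (1.1% higher and 0.099% lower). The median log2 fold change of the 32 genes was 0.14, against 0.019 over all targets. With median centring of the arrays in place of loess the members divided into 3 higher and 4 lower, and over all targets 39.8% of the differing ones were higher rather than 54.3%.

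Of the 18 tested ligands 15 had a positive log2 fold change, which became 13 with the Feature Extraction log ratio and 12 with median centring. Over all 23238 targets 12514 were positive and 10724 negative. Ccl4 and Cxcl2 among the 15 passed the filter only through EED cKO, and Ccl12, which was negative, only through control. All 6 tested CXC ligands were positive, and they remained so under each of the 6 other scalings tried, although only Cxcl1, Cxcl2 and Cxcl10 passed the test. Among these scalings Aquantile acts on the mean signal of a spot, leaves the ratios unchanged and could not turn a sign. Of the 10 tested receptors 7 were negative, 9 with the Feature Extraction log ratio. Ccr4 and Cxcr3 among the 7 passed the filter only through control, and Ccr3 only through EED cKO. In 6 genes the EED cKO values were all above the control values (9.64% of all targets) and in 5 they were all below (7.48%). Ccl4 among the 6 and Ccr4 and Cxcr3 among the 5 passed the filter only through the higher genotype. Of the 26 members detected in both genotypes 5 were all above (9.39% of such targets) and 3 all below (7.94%). For a gene without overlap the exact permutation test (two-sided) gives p = 0.0286, the smallest that 4 arrays against 4 allow. Whether ligands and receptors differed in this respect was not tested.

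**Figure D2:**
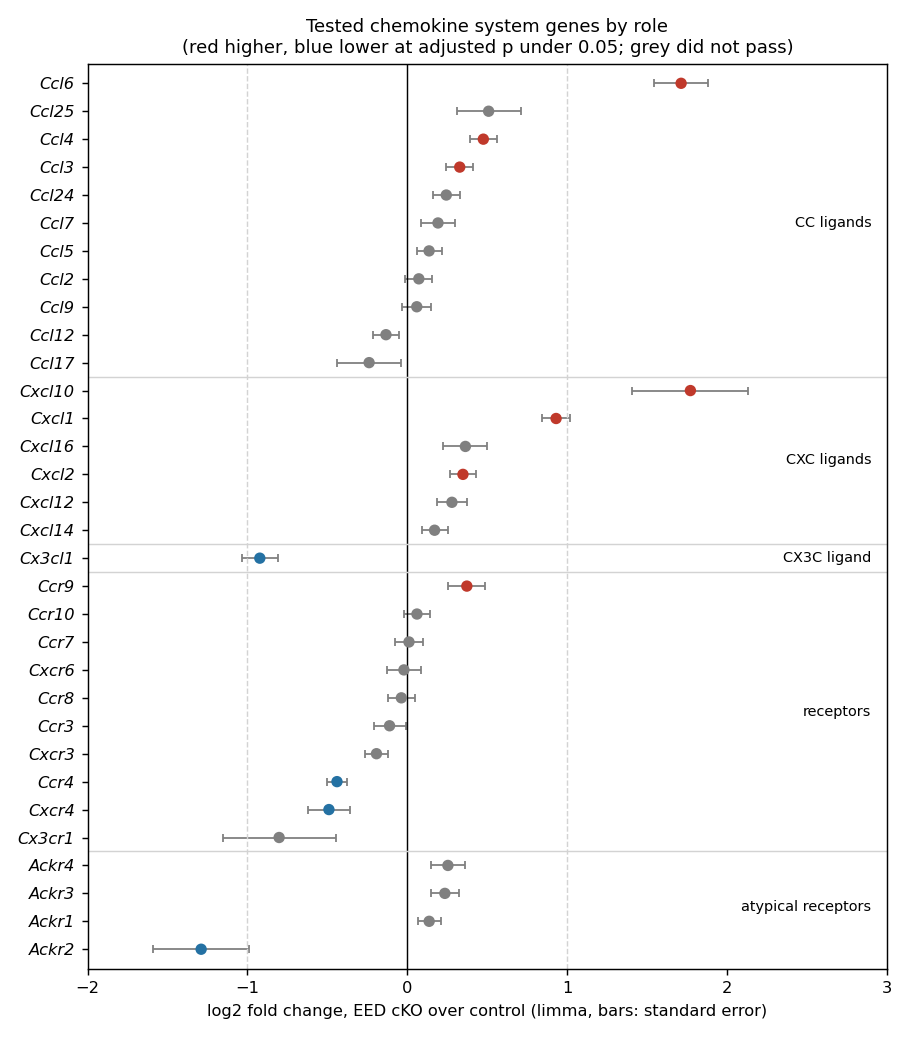
Log2 fold change of EED cKO over control (x axis, limma with dye as a covariate) of the 32 tested genes, grouped by role; bars are standard errors from 4 against 4 arrays, and dashed lines mark 2-fold. Red points (7 genes) were higher and blue points (4 genes) lower at an adjusted p under 0.05, and the grey points did not pass; Ccl6, Cxcl10 and Ackr2 lie past 2-fold.

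Eed itself was checked first. Its log2 ratio was between -2.04 and -1.66 in EED cKO and between -0.46 and -0.18 in control, a log2 fold change of -1.46 (SE 0.09, limma adjusted p = 2.12e-05). Where the probe lies relative to the deleted part of the gene is not given in the sources used here. The reference channel, which held the same RNA on every array, gave 84 targets with an adjusted p under 0.05 and 0 chemokine genes among them, and the largest difference of a tested member there was 0.39 on the log2 scale. All EED cKO arrays lay in one row of the slide and all control arrays in the other, so the row and the genotype cannot be told apart. Y-linked RNA was unbalanced as well, high on control replicates 2 and 3 and low on the other controls and on every EED cKO array. With it as a covariate, an alternative chosen after seeing the data, Ackr2, Ccl3 and Ccr9 lost their calls and Ackr4 passed.

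The epidermis is a mixture of cells, and in such bulk RNA fewer cells of a type and less RNA per cell cannot be told apart. All 7 keratinocyte markers were detected and 0 differed. Of 9 tested Langerhans cell markers 3 were higher in EED cKO, against 11.8% of all targets: H2-Ab1 (log2 fold change 1.55, limma adjusted p = 0.00935), H2-Eb1 (1.08, limma adjusted p = 0.0209) and Cd74 (0.46, limma adjusted p = 0.044). Like these, H2-Aa and H2-DMa serve MHC class II antigen presentation, and they did not pass (limma adjusted p = 0.157 and 0.423). The defining Langerhans cell marker Cd207 was at background in both genotypes. The summed ratio of the tested Langerhans cell markers ran from 12.4 to 16.7 in EED cKO and from 6.13 to 13.9 in control, with control replicate 4 highest among the controls. Of 9 tested T cell markers only Cd3e was higher (0.54, limma adjusted p = 0.00349), and the summed ratios were 6.59 to 8.60 in EED cKO and 6.59 to 9.36 in control. Of 10 tested macrophage and monocyte markers 0 differed, with sums of 14.6 to 18.6 in EED cKO and 8.92 to 29.7 in control. Control replicate 1 had the lowest macrophage sum and control replicate 4 the highest. The part of these cell types in the results that follow was not tested.

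The counts for other cell types stand against 11.8% of all targets called higher and 9.88% called lower, and most of these lists are small. Of 4 tested endothelial markers 2 were higher, Pecam1 (log2 fold change 0.89, limma adjusted p = 0.00385) and Kdr (0.62, limma adjusted p = 0.00215). Of the 9 listed, 5 were at background, Cdh5, Tie1, Tek, Emcn and Esam. The endothelial sums were 6.25 to 7.41 in EED cKO and 4.18 to 5.09 in control and did not overlap. Of 4 tested neutrophil markers Camp was higher (0.29, limma adjusted p = 0.0187). Of 8 tested dermal fibroblast markers 1 was higher and 1 lower, and of 6 melanocyte markers 1 was lower. Of 6 Merkel cell markers the 3 detected on every array, Krt8, Krt18 and Krt20, were higher, and the other 3 passed the filter through EED cKO alone. Among B cell, mast cell, lymphatic endothelial, erythroid and skeletal muscle markers 0 of 4, 0 of 1, 0 of 1, 0 of 4 and 0 of 5 differed.

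Of the CC ligands, Ccl6 changed most. Ccl6 encodes a mouse CC chemokine made by myeloid cells. Its log2 ratio was 2.80, 3.03, 2.99 and 2.78 on EED cKO replicates 1 to 4 and 1.07, 1.46, 1.54 and 0.69 on control replicates 1 to 4. The groups were far apart and the EED cKO arrays lay close together, with an SD of 0.13 against 0.39 in control. The log2 fold change was 1.71 (SE 0.17, limma adjusted p = 0.000345), or 3.27-fold, and the adjusted p stayed under 0.05 in all 24 alternatives, with log2 fold changes between 1.43 and 2.00. The sums of the macrophage and monocyte markers overlapped between the genotypes, and those of the Langerhans cell markers overlapped through control replicate 4 alone. Among the controls, replicate 4 had the highest sum of both lists and the lowest Ccl6. Whether these cell types bear on Ccl6 was not tested.

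Ccl3 and Ccl4 encode the macrophage inflammatory proteins MIP-1α and MIP-1β, which attract monocytes and T cells. Ccl3 gave -2.97, -2.92, -2.80 and -2.67 in EED cKO and -3.12, -3.23, -3.25 and -3.07 in control. Ccl4 gave -2.70, -2.85, -2.55 and -2.92 in EED cKO and -3.01, -3.55, -3.12 and -3.24 in control. In both genes every EED cKO array lay above every control array, by small margins. The log2 fold change was 0.33 for Ccl3 (SE 0.08, limma adjusted p = 0.0239) and 0.47 for Ccl4 (SE 0.09, limma adjusted p = 0.00528). The call of Ccl3 was held in 15 of 24 alternatives and was lost without EED cKO replicate 3 (adjusted p = 0.0755, limma) or 4 (0.0721) and without control replicate 2 (0.0829) or 3 (0.053). It was also lost with median centring (0.16, limma adjusted p = 0.198) and with the sample channel alone (0.16, limma adjusted p = 0.303). The fit without the dye term, the methods' t-test after Benjamini-Hochberg adjustment and Y-linked RNA as a covariate lost it too. The probe of Ccl4 was detected above background on every EED cKO array but on 2 control arrays, and its call was lost with the Feature Extraction log ratio, where the log2 fold change was 1.44 with a limma adjusted p = 0.0863, with median centring (0.33, limma adjusted p = 0.0525), with the methods' t-test after Benjamini-Hochberg adjustment and with the sample channel alone.

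Ccl6, Ccl3 and Ccl4 lie in a run of CC ligand genes together with Ccl5 and Ccl9, each less than 500 kb from the next in GRCm38.p6. The 2 members at the other end of the run did not pass. Ccl5, which attracts T cells, gave a log2 fold change of 0.14 (SE 0.08, limma adjusted p = 0.251), and Ccl9 gave 0.06 (SE 0.09, limma adjusted p = 0.693). Both values turned negative with median centring. The 3 detected members of the other run of CC ligands, Ccl2, Ccl7 and Ccl12, which encode monocyte attractants, did not pass either, at 0.07 (-0.059 with median centring), 0.19 and -0.13.

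Ccl12 was tested through its control arrays alone. It gave -0.65, -0.87, -0.73 and -0.80 in EED cKO and -0.66, -0.80, -0.39 and -0.67 in control, and the groups overlapped (limma adjusted p = 0.261). The remaining CC ligands, Ccl17 (-0.24), Ccl24 (0.24) and Ccl25 (0.51), had limma adjusted p-values of 0.436, 0.0719 and 0.0992, and Ccl24 turned to -0.046 with the Feature Extraction log ratio. The other probe of Ccl25, also above background on all arrays, gave a difference of -0.33, so its direction rests on the probe. Ccl24 and Ccl25 passed without control replicate 1.

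The CXC ligands were led by Cxcl10. Its log2 ratio was -1.23, 0.93, -0.92 and -0.97 in EED cKO and -2.29, -2.53, -2.42 and -2.02 in control. The genotypes did not overlap, and EED cKO replicate 2 stood far above the other EED cKO arrays. The difference was a log2 fold change of 1.77 (SE 0.36, limma adjusted p = 0.00937), or 3.41-fold. Without EED cKO replicate 2 it was 1.29 with an SE of 0.13 and a limma adjusted p = 0.000979, still past 2-fold. Its call was kept in 23 of 24 alternatives and was lost with the methods' t-test after Benjamini-Hochberg adjustment (adjusted p = 0.107). The related interferon target Cxcl9, its neighbour, was at background, as were the interferon genes Ifng and Ifnb1. Among other interferon-related genes of the inducer list, Irf7 was higher (log2 fold change 0.55, limma adjusted p = 0.0391) and Irf1 did not pass (0.25, limma adjusted p = 0.121).

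Cxcl1 and Cxcl2 encode neutrophil attractants that act through CXCR2. Cxcl1 gave -2.86, -3.33, -2.91 and -3.17 in EED cKO and -3.93, -4.02, -4.04 and -3.99 in control. The control arrays lay close together (SD 0.049) and below every EED cKO array. Cxcl1 thus differed by a log2 fold change of 0.93 (SE 0.09, limma adjusted p = 0.000275), or 1.90-fold, with values between 0.71 and 1.37 and an adjusted p under 0.05 in all 24 alternatives. It was past 2-fold under the Feature Extraction log ratio and without background correction. Cxcl2 gave 0.27, 0.54, 0.19 and 0.47 in EED cKO and -0.31, 0.20, -0.01 and 0.20 in control, and these groups overlapped. Its log2 fold change was 0.35 (SE 0.08, limma adjusted p = 0.0155). Its probe was above background on 4 EED cKO arrays and 2 control arrays. The value rose to 1.97 with the Feature Extraction log ratio. The call of Cxcl2 was kept in 19 of 24 alternatives. It was lost without the dye term (limma adjusted p = 0.125) and with median centring (0.27, limma adjusted p = 0.0672). The sample channel alone lost it too (0.28, limma adjusted p = 0.0586). So did the methods' t-test, both unadjusted and after Benjamini-Hochberg adjustment.

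Cxcl1 and Cxcl2 lie beside Cxcl3, Cxcl5 and Cxcl15, all at background, and their receptor gene Cxcr2 was at background as well. The other CXC ligands did not pass. Cxcl14, the abundant homeostatic ligand of epidermis, gave 0.17 (limma adjusted p = 0.167), Cxcl12, the ligand of CXCR4, 0.28 (limma adjusted p = 0.0647), and Cxcl16, the transmembrane ligand of CXCR6, 0.36 (limma adjusted p = 0.0879). Cxcl12 passed with the replicate block, without background correction and without EED cKO replicate 2.

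**Figure D3:**
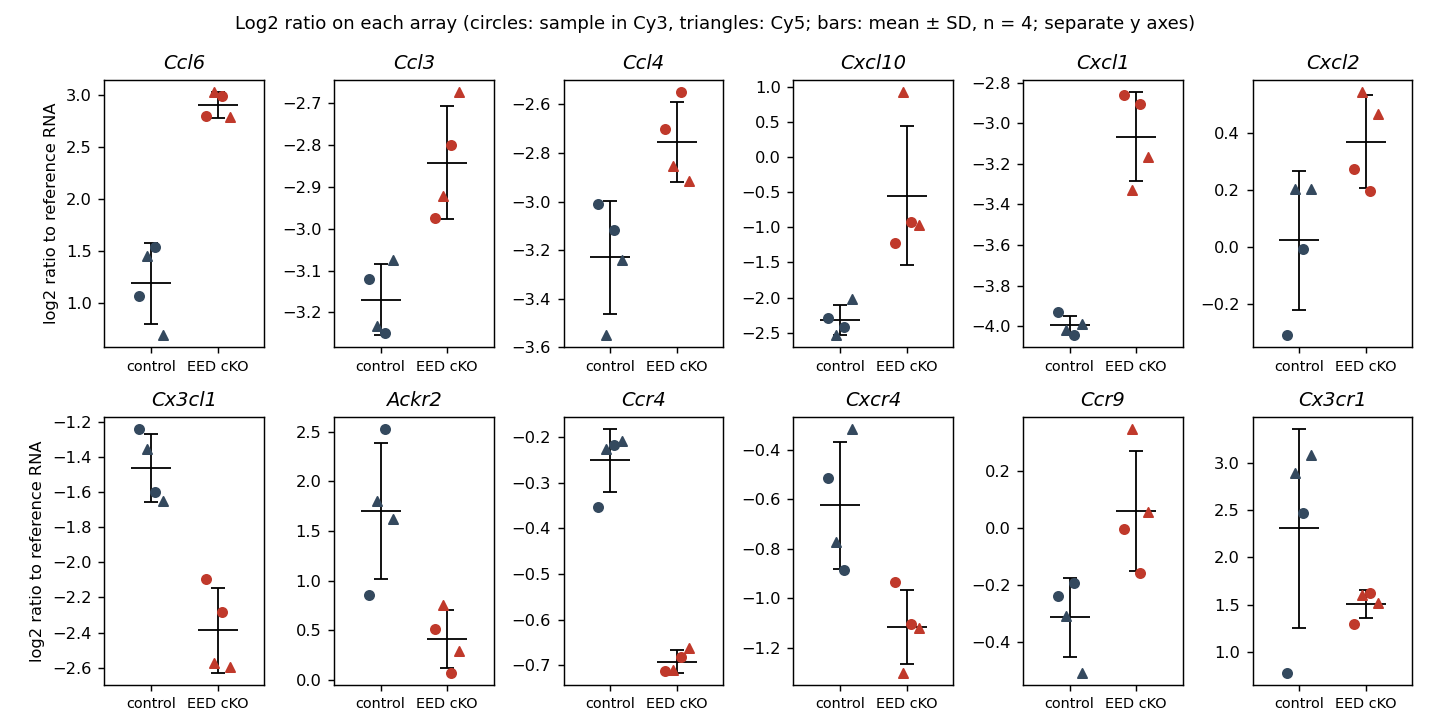
Log2 ratio of sample over reference RNA (y axes, a separate range in each panel) on each array of the 11 genes that differed and of Cx3cr1; circles are samples in Cy3, triangles samples in Cy5, and black bars the mean ± SD of 4 arrays. The genotypes are apart in 10 of the 11 genes and overlap in Cxcl2, against 17.1% of all targets without overlap. These 11 were selected by adjusted p on the same arrays, so little overlap follows from the selection. Ccl4 and Ccr4 among the 10 passed the filter only through the genotype in which they were higher. EED cKO replicate 2 stands above the others in Cxcl10, and control replicate 1 below the other controls in Cx3cr1.

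Cx3cl1, the membrane-bound ligand fractalkine, was the ligand that went down. It gave -2.10, -2.57, -2.28 and -2.60 in EED cKO and -1.24, -1.36, -1.60 and -1.65 in control. Every EED cKO array lay below every control array. Its level fell by 0.92 on the log2 scale (SE 0.11, limma adjusted p = 0.00103), or 0.527 times the control level, and its call was kept in all 24 alternatives, between -1.15 and -0.83. Of its neighbours Ccl17 and Ccl22, Ccl17 did not pass and Ccl22 was at background.

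Its receptor Cx3cr1, which marks monocytes and macrophages, gave 1.29, 1.60, 1.62 and 1.51 in EED cKO and 0.78, 2.90, 2.47 and 3.09 in control. The EED cKO arrays lay close together, while control replicate 1 lay below them all and the other control arrays above them all. The log2 fold change of -0.80 did not pass (SE 0.35, limma adjusted p = 0.135). Without control replicate 1 it was -1.27 (SE 0.12, limma adjusted p = 0.000687). With Y-linked RNA as a covariate it was -0.48 (limma adjusted p = 0.471). Another detected probe of Cx3cr1 gave a difference of -0.98, and the dimmest gave -0.30. Control replicate 1 was also the array with the lowest sum of macrophage and monocyte markers, 8.92 against 17.5 to 29.7 on the other controls, and whether this bears on Cx3cr1 was not tested.

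**Figure D4:**
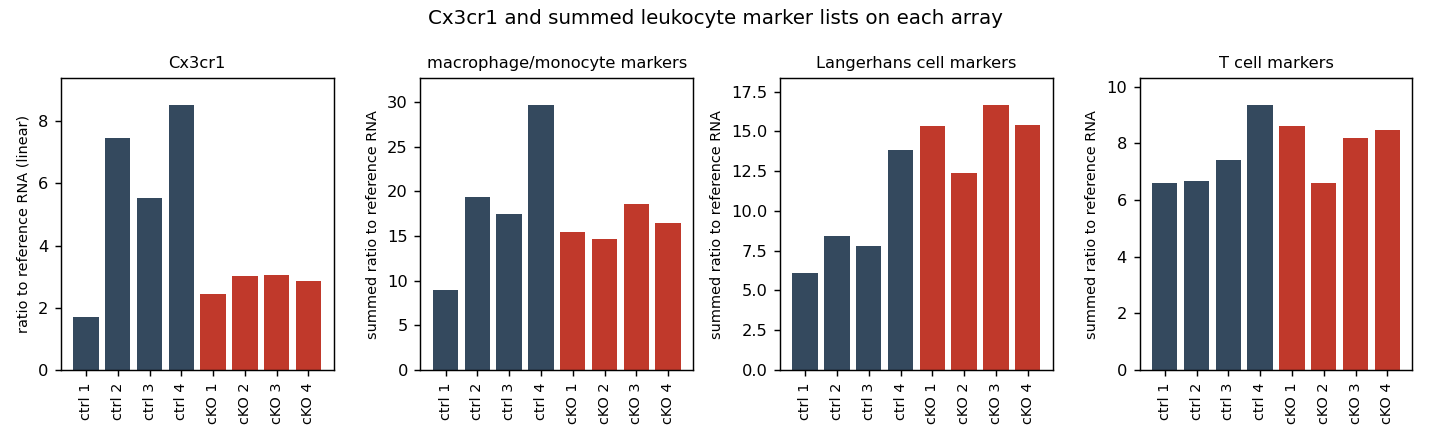
Linear ratio to reference RNA of Cx3cr1 and the summed ratios of the tested macrophage and monocyte, Langerhans cell and T cell markers (y axes from 0) on each of the 4 control arrays (dark) and 4 EED cKO arrays (red). Control replicate 1 is lowest among the controls in all panels, with a macrophage and monocyte sum of 8.92 against 29.7 on control replicate 4.

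Among the signaling receptors 3 of 10 differed (21.6% of all targets did), all by less than 2-fold. Ccr4, the receptor for CCL17 and CCL22 on skin-homing T cells, gave -0.71, -0.71, -0.68 and -0.66 in EED cKO and -0.35, -0.23, -0.22 and -0.21 in control. The groups were apart, and the residual SD was the lowest of the tested members. Ccr4 fell by 0.44 on the log2 scale (SE 0.07, limma adjusted p = 0.00226), and the call was kept in all 24 alternatives. Its probe was above background on 2 EED cKO arrays and 4 control arrays. With the Feature Extraction log ratio the size moved to -1.98 and its SE to 0.20, so the small spread belongs to the scale used here.

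Cxcr4, the receptor for CXCL12, gave -0.94, -1.30, -1.10 and -1.12 in EED cKO and -0.52, -0.77, -0.89 and -0.32 in control. The groups did not overlap, but EED cKO replicate 1 and control replicate 3 lay close to each other. Its log2 fold change was -0.49 (SE 0.13, limma adjusted p = 0.0271). The call was lost without EED cKO replicate 2 (limma adjusted p = 0.0702), 3 (0.0678) or 4 (0.0737) and without control replicate 1 (0.0593) or 4 (0.0518). Ccr9, the receptor for CCL25, gave -0.01, 0.34, -0.16 and 0.05 in EED cKO and -0.24, -0.31, -0.19 and -0.51 in control. Its log2 fold change of 0.37 (SE 0.12, limma adjusted p = 0.0464) lay just under the threshold and was kept in 10 of 24 alternatives. It was lost without EED cKO replicates 1, 2 or 4 and without control replicates 1, 2 or 4, in each case one array at a time, with limma adjusted p-values up to 0.116. Among other alternatives, median centring (limma adjusted p = 0.205) and Y-linked RNA as a covariate (limma adjusted p = 0.0801) lost it too.

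Cxcr3, the receptor for CXCL10, was lower on every EED cKO array, at -0.15, -0.29, -0.20 and -0.19 against -0.06, -0.13, 0.13 and 0.01 in control. Its log2 fold change of -0.19 did not pass (SE 0.07, limma adjusted p = 0.0883), and its probe was above background on 2 EED cKO arrays and 3 control arrays. Cxcr3 passed in some alternatives, among them no background correction and the Feature Extraction log ratio. Ccr3, the eosinophil receptor, gave 0.28, 0.02, 0.25 and -0.25 in EED cKO and 0.67, -0.13, 0.37 and -0.16 in control, with overlap and a limma adjusted p = 0.465. Ccr7, the lymph node homing receptor, Ccr8, Ccr10, the receptor for the skin ligands CCL27 and CCL28, and Cxcr6 gave log2 fold changes of 0.01, -0.04, 0.06 and -0.02, all smaller than their SEs. Each of these turned its sign under at least 1 alternative.

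Ackr2, which scavenges inflammatory CC chemokines, was the member that fell most. It gave 0.52, 0.76, 0.07 and 0.29 in EED cKO and 0.85, 1.80, 2.53 and 1.62 in control. The groups did not overlap, but control replicate 1 lay near EED cKO replicate 2 and control replicate 3 stood highest. Its log2 fold change was -1.29 (SE 0.30, limma adjusted p = 0.0152), or 0.409 times the control level, and without control replicate 3 it was -0.93 (limma adjusted p = 0.0077). The call was lost without EED cKO replicate 3 (limma adjusted p = 0.0503) or 4 (0.056). Y-linked RNA was high on control replicates 2 and 3 and on no other array (mean log2 ratio 1.19 and 1.02, against -1.51 to -1.31), and with it as a covariate, an alternative chosen after seeing the data, Ackr2 was at -0.88 (limma adjusted p = 0.0707). Another probe of Ackr2 was at background on all arrays, with a difference of -0.08.

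The other atypical receptors did not pass. Ackr1, the receptor of venules and erythrocytes, gave 0.14 (limma adjusted p = 0.207). Ackr3, which binds CXCL12, gave 0.23 (limma adjusted p = 0.0788), and Ackr4, which takes up CCL19, CCL21 and CCL25 and is made by keratinocytes, 0.25 (limma adjusted p = 0.124). Ackr4 passed in some alternatives, among them no background correction and the replicate block.

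Ligands and the receptors they are known to bind are set side by side here. Cxcl10 was higher while Cxcr3 did not pass. Cxcl1 and Cxcl2 were higher while Cxcr2 was at background. Ccl3, Ccl4 and Ccl6 were higher while Ccr1, a receptor gene for such ligands, was at background. Cxcr4 was lower while Cxcl12 did not pass, and Ccr4 was lower while Ccl17 did not pass. Ccr9 was higher while Ccl25 did not pass and depended on its probe.

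The spread within a genotype differed widely between members. The median residual SD of the 32 genes was 0.13 on the log2 scale, against 0.12 over all targets. It ran from 0.050 in Ccr4 to 0.70 in Cxcl10, with Cx3cr1 at 0.68 and Ackr2 at 0.57. These 3 genes lay above the 99th percentile of all targets. The median rose to 0.31 with the Feature Extraction log ratio.

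The sizes depended on how the spots were processed. With the Feature Extraction log ratio 8 members passed the 2-fold limit in place of 3, while over all targets 701 passed it in place of 278. Added to Ccl6, Cxcl10 and Ackr2 were Cxcl2 at 1.97, Ccr4 at -1.98, Cxcl1 at 1.37, Cxcr4 at -1.20 and Cx3cl1 at -1.06. Cxcl2 and Ccr4 passed the filter only through the genotype in which they were higher. Which scale is nearer to the true change was not tested. The 11 genes that differed kept their direction under all 24 alternatives, and Ccl6, Cxcl1, Cx3cl1 and Ccr4 also kept an adjusted p under 0.05 in all of them. Many of these alternatives could not turn a sign. The detection filters, the dye, block and trend settings, the t-tests and Aquantile scaling left these fold changes as they were. The deposited table repeated the Feature Extraction log ratio.

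**Figure D5:**
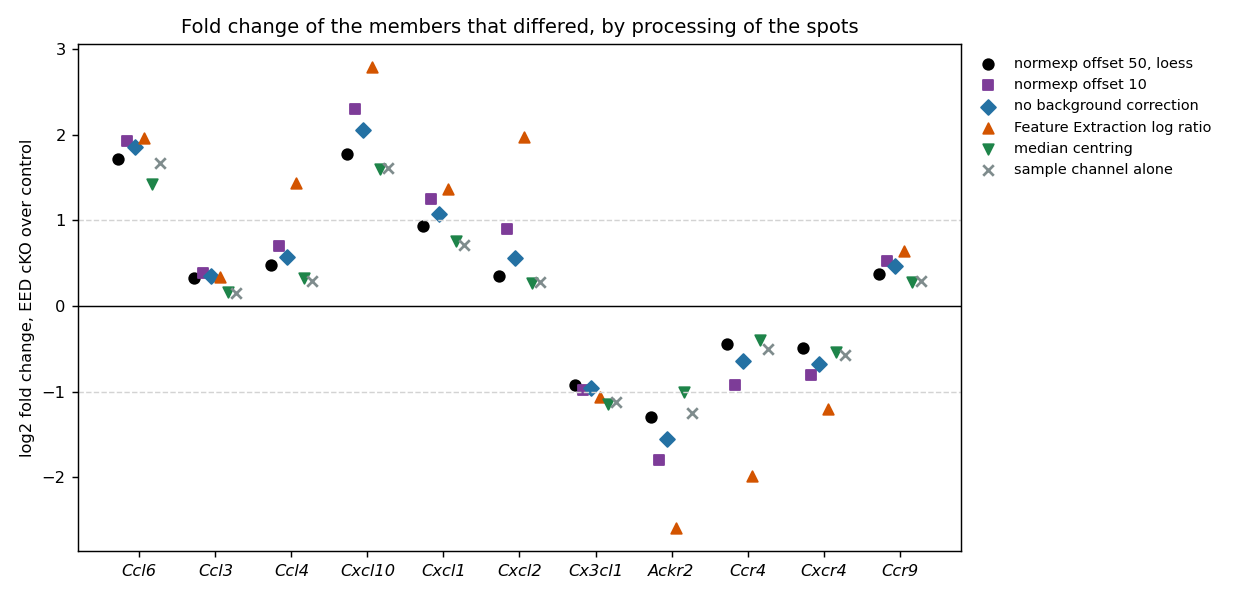
Log2 fold change of EED cKO over control (y axis) of the 11 genes that differed (x axis) under 6 ways of processing the spots; dashed lines mark 2-fold, and the sample channel alone was chosen after seeing the data. Directions are the same in all 6, while Cxcl2 ranges up to 1.97 and Ccr4 down to -1.98 with the Feature Extraction log ratio.

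Other genes of the system were read from lists by pathway, and their counts stand against 11.8% of all targets called higher and 9.88% called lower. Of 10 tested further chemokine system genes 1 was higher, Ccl27a (log2 fold change 0.84, SE 0.20, limma adjusted p = 0.0174), the keratinocyte ligand of CCR10, and 1 was lower, Cmtm6 (-0.51, limma adjusted p = 0.005). Their median was 0.096. Of 30 tested genes of receptor signaling 3 were higher and 6 lower, with a median of -0.072. Among these were Rgs1, a G protein regulator of lymphocytes (0.99, limma adjusted p = 0.0173), the Rac activator Tiam1 (-0.67, limma adjusted p = 0.0121) and the inhibitory G protein subunit Gnai1 (-0.67, limma adjusted p = 0.00762). Of 10 tested genes of matrix and proteoglycan handling, which hold enzymes of heparan sulfate synthesis, syndecans and proteases, 1 was higher and 3 lower, with a median of -0.16. Dpp4, a peptidase that trims CXCL10 and CXCL12, was higher at 0.45 (limma adjusted p = 0.0164), and the lower ones were Ndst1 (-0.58, limma adjusted p = 0.0174), Adam10 (-0.37, limma adjusted p = 0.0173) and Mmp2 (-0.37, limma adjusted p = 0.0404).

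Of 26 tested inducers of chemokines 8 were higher and 5 lower (11.8% and 9.88% of all targets), with a median of 0.045 and 4 higher past 2-fold. The higher ones were led by the epidermal cytokines Il18 (log2 fold change 1.98, SE 0.20, limma adjusted p = 0.000436), Il1f6, also named Il36a (1.88, SE 0.22, limma adjusted p = 0.000905), and Il1f8, also named Il36b (1.33, SE 0.27, limma adjusted p = 0.00841). Il33, the fourth past 2-fold, gave 1.20, and Il1b and Il1a gave 0.72 and 0.56 (limma adjusted p = 0.000728, 0.00101 and 0.00472). The lower ones were Nfkb1 (-0.65, limma adjusted p = 0.00161), Rela (-0.52, limma adjusted p = 0.0186), Relb (-0.42, limma adjusted p = 0.0102), Nfkbia (-0.33, limma adjusted p = 0.0166) and Tnfrsf1a (-0.48, limma adjusted p = 0.0136). Nfkbiz, another gene of NF-κB signaling, was higher (0.42, limma adjusted p = 0.0038), and Nfkb2, Tnfaip3 and Myd88 did not pass. Tnf, Il6, Il17a and Ifng were at background in both genotypes. Il1f6 turned to -0.30 with the Feature Extraction log ratio (limma adjusted p = 0.413).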

How the data were processed

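Expression was measured on 8 two-colour Agilent arrays. Per the labels, the authors extracted the spots with Agilent Feature Extraction 12.0.1.1 and deposited for each array the spot intensity, background flags and the software's log10 ratio (red over green). A table of log2 ratios was deposited as well. All of its values for probes with 1 spot were within 1e-04 of the log2 ratio of processed sample over reference signal, uncentred (column medians 0.0326 to 0.139).

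Here the median spot intensity was corrected by normexp (offset 50), control and outlier spots were left out, and each array was normalized by loess (span 0.3) and turned to sample over reference. A gene was represented by its brightest probe. Probes were named through RefSeq (GRCm38.p6), which matched 28026 of 29796 accessions; the array was annotated on an older build. Between 51.5% and 65.5% of spots per array were well above background, and the number of arrays limits the precision. The genotype difference was fitted with limma 3.58.1 under R 4.3.3 (with a dye term, Benjamini-Hochberg over 23238 targets). The 19 missing values, none in a member, were left missing. On simulated arrays for this comparison with 200 of 23238 targets changed 3-fold, 197 and 198 were recovered with 0 and 1 false calls. Most members that differed changed by less than 3-fold, and the recovery of such smaller changes was not simulated.

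The labels number the replicates 1 to 4 in both genotypes. Arrays with the same number deviated together (correlations 0.489, 0.679, 0.327 and 0.364, and 0.126 or 0.456 after removal of the dye, which follows the number), so the number was also fitted as a block. P-values measure the spread between these samples.

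The members and lists were chosen with earlier results of these data known. Values on every array are given for members that differed, reached 2-fold or were detected in 1 genotype only, other tested members by fold change, and members at background by name. From each list up to 3 genes with the largest difference are named, while Cx3cr1 and further list genes were picked with their values in view. The alternatives were other background corrections, normalizations, filters, probe choices, dye, block and trend settings, the methods' t-test and each array left out. The sample channel alone and Y-linked RNA as a covariate were added after seeing the data. Not every gene of the lists is reported here. Drawings were made with matplotlib.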

Additional observations from a re-analysis of the deposited data

Results flagged for a closer look

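Of 64 combinations of a tested member and a genotype, 2 (3.12%) had an array far from the other 3 by Dixon's ratio of gap to range, for which chance alone gives about 1 in 20. For Cxcl10 in EED cKO, replicate 2 stood at a log2 ratio of 0.93 while the others ran from -1.23 to -0.92 (ratio 0.856). For Ccr4 in control, replicate 1 stood at -0.35 while the others ran from -0.23 to -0.21 (ratio 0.872).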

How the results depend on the processing

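Of the 24 alternatives tried, the replicate block lost 0 of the 11 members that differed and added Ackr4 and Cxcl12; it changed no other call of a member. Targets changed 2-fold (278) were 499 with a normexp offset of 10, 701 with the software's own log ratio (Feature Extraction) or the deposited log2 table and 175 with the methods' t-test after Benjamini-Hochberg adjustment. Targets differing at any fold (5028) were 2555 with median centring, 2361 with no dye term, 914 with that t-test, 3004 with the sample channel alone, 2810 with the Y-linked covariate and 2725 to 5068 with an array left out. Members differing (11) were 7 with median centring or the sample channel alone, 4 with that t-test and 7 to 12 with an array left out. Members higher (7) were 3 with median centring or the sample channel alone, 4 with no dye term and 2 with that t-test; members lower (4) were 2 with that t-test and 2 to 4 with an array left out. Members changed 2-fold (3) were 8 with the software's or the deposited ratios and 1 with that t-test. Pathway list genes differing (28) were 18 with the software's or the deposited ratios, 16 with median centring, 15 with no dye term, 8 with that t-test, 14 with the Y-linked covariate and 18 to 28 with an array left out. Marker genes differing (16) were 10 with median centring and 5 with that t-test. The members' median residual SD (0.132) was 0.313 with the software's or the deposited ratios. The 2-fold targets divided into 156 higher and 56 lower with median centring, against 255 and 23. The cause of these shifts was not tested.

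Signs that turned belonged to members that did not pass, and to Il1f6 (-0.30 with the software's and the deposited ratios). With median centring Ccl2 was at -0.059, Ccl5 at -0.040, Ccl9 at -0.11 and Ccr7 at -0.029. With the sample channel alone Ccl2 was at -0.029, Ccl5 at -0.0085 and Ccl9 at -0.055, and with the Y-linked covariate Ccl2 was at -0.015, Ccl9 at -0.016 and Ccr7 at -0.093. With the software's and the deposited ratios Ccl24 was at -0.046, Ccl9 at -0.040, Ccr10 at -0.24 and Ccr7 at -0.18. Ccr7 was at -0.030 without background correction and -0.011 with an offset of 10. With an array left out, Ccr7 ran from -0.073 to 0.053, Ccr8 from -0.091 to 0.021 and Cxcr6 from -0.0996 to 0.0684.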
